A study of Homo sapiens with 4 samples.

Results

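The sites described here are intervals inside introns that were listed for full-length SOX2 and not for its DNA-binding domain alone. They were selected on their listing and position, as the rows of the SOX2 peak list without a seventh column, which are the rows absent from the SOX2-DBD list. The centre of the interval had to lie in no exon, more than 1 kb from every annotated transcript start, inside a protein-coding gene and inside no protein-coding gene spanning 500 kb or more. In all, 19776 of 57907 distinct SOX2 intervals met the rule (34.2%), and they made up 45.4% of the 43607 intervals listed for SOX2 alone. Of the 25614 SOX2 intervals in such introns, 77.2% were listed for SOX2 alone, beside 75.3% of all SOX2 intervals. The rule itself used that listing, so nothing is read from these shares. The other 5838 intervals in the same introns were listed for both proteins and are called shared intronic sites.

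The experiment used BJ fibroblasts, an established line from human foreskin, examined 48 h after ectopic expression of V5-tagged full-length SOX2 or of the V5-tagged DNA-binding domain of SOX2 (SOX2-DBD). Binding was mapped by CUT&RUN, in which an antibody, here against the V5 tag, brings a nuclease to the chromatin around the protein, and the fragments it frees are sequenced. The 4 samples formed 2 groups of 2, but each list analysed was attached to replicate 1 of its group, so replicate error is lacking throughout and no test between the proteins was possible. All intervals given below are 95% confidence intervals that cover counting error only, over sites, which are not replicates. The depth of the libraries is unknown. Both groups carried an introduced V5-tagged protein, and no library without one was analysed here.

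SOX2 is a transcription factor of the SOX family that binds DNA through an HMG box, a domain that inserts into the minor groove and bends the helix. It maintains pluripotent and neural stem cells, and it is called a pioneer factor because it can bind sites in compacted chromatin. BJ fibroblasts are used as a starting cell in reprogramming. The series concerns how pioneer factors scan and reach compacted chromatin. Sites listed only for the full-length protein are rows of its list that the SOX2-DBD list lacks. Their overlap with other SOX2-DBD intervals was not measured here.

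Windows of 200 bp at the centres of 5 sites give examples of the motifs described below, which were chosen for the motif they hold and do not stand for the members at large. The sites were chosen for high total signal within a class of motif content. All windows are from hg19, on the plus strand, read 5′ to 3′, and lie wholly in introns. The first pair is shown for the extended SOX sequence AACAATAG or AACAATGG, in capitals, in ARHGAP32 (a GTPase-activating protein, chr11:128888164-128888363) and TMEM260 (chr14:57054465-57054664).
ARHGAP32: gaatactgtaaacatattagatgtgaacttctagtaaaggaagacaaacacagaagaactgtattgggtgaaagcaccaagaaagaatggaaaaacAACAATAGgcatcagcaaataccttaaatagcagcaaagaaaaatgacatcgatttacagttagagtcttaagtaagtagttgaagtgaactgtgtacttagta
TMEM260: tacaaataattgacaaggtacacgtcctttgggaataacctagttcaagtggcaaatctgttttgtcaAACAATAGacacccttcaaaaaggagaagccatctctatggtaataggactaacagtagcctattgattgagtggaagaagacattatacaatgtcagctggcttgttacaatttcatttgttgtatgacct

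The next window is shown for facing SOX cores, a match to ACAAAG or ACAATG followed by one on the other strand, both in capitals. It lies in DDAH1 (an enzyme that degrades methylated arginines, chr1:85879745-85879944), with 4 bp between the cores.
DDAH1: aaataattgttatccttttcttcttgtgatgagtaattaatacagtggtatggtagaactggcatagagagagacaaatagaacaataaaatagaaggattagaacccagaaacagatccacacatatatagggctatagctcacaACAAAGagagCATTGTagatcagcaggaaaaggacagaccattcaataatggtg

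The last pair is shown for the AP-1 sequence TGACTCA, in capitals, in HIF1A (the oxygen-regulated subunit of hypoxia-inducible factor, chr14:62171294-62171493) and GNG2 (a G-protein gamma subunit, chr14:52410732-52410931).
HIF1A: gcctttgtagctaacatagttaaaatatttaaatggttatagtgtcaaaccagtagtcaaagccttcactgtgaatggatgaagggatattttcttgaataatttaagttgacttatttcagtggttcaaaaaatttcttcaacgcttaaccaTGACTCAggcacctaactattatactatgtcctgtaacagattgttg
GNG2: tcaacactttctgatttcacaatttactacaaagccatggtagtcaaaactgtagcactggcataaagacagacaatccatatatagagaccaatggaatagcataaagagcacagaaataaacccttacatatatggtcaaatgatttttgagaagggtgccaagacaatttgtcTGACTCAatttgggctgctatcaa

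All 5 windows were rich in A and T, with a GC content between 33.0% and 37.0%. The share of their 31-mers with more than 1 copy in the genome was 0% in ARHGAP32, TMEM260, DDAH1 and HIF1A and 5.88% in GNG2. Membership of these windows in families of interspersed repeats, whose diverged copies share few exact 31-mers, was not tested. The total signal of the intervals, the authors' deposited value, was 10035 in ARHGAP32, 9350 in TMEM260, 6955 in DDAH1, 12268 in HIF1A and 10620 in GNG2. The interval in ARHGAP32 was not found in the down-sampled SOX2 list and the other 4 were.

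The sites had a median width of 559 bp (555 to 563), an interquartile range of 435 to 742 bp and a widest interval of 3569 bp. Together they covered 12.3 Mb. Their total signal ranged from 1184 to 17240 with a median of 2304.5, and the median of their maximum signal was 10. SOX2-only sites in very long genes (3628, median width 568 bp, median total signal 2276) and outside genes (10399, 557 bp, 2261) had much the same shape. Shared intronic sites were listed as narrower, with a median of 374 bp and a total signal of 2806, but it is not stated in which group their values were measured, so no comparison of signal is made with them.

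The 5 sites of highest total signal were broad, from 2135 to 3569 bp wide. Their maximum signals of 12 to 17 were at or above the upper quartile of 12 among the members, whose highest maximum was 38. Total signal rose with width, with a median width of 399 bp in the quartile of lowest total signal and 892 bp in the highest. Choosing by total signal thus favoured broad intervals. The highest lay in intron 6 of GSDMC, a gasdermin gene, at chr8:130766711-130769649, with a total signal of 17240 over 2939 bp and a maximum of 14. The next lay in intron 4 of CCDC158 at chr4:77310539-77314107, with 14817 over 3569 bp, the widest of all members. It was followed by intron 1 of PALS2, a membrane scaffold protein, at chr7:24654267-24657079 with 14450, by intron 3 of PDCD10, a regulator of endothelial junctions, at chr3:167430638-167433561 with 14285, and by an interval in intron 3 of DTNBP1, which encodes dysbindin, with 14206 over 2135 bp. All 5 were found in the down-sampled list. A SOX core was present in the windows of the GSDMC and CCDC158 sites and in none of the other 3.

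The down-sampled SOX2 list, which carries positions without signal, is another readout of the same group. Of the members, 12716 (64.3%, 63.6 to 65.0) overlapped one of its intervals by at least 1 bp, beside 64.3% of all SOX2 intervals and 63.6% of the shared intronic sites. This share was at the background and is no result about the members. It was flat within them, from 63.4% in the quartile of lowest total signal to 64.9% in the highest. It was 64.3% with a SOX core in the window and 64.3% without one. For AP-1 it was 62.4% with a match (59.6 to 65.0) and 64.4% without.

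The sites lay in the part of intronic sequence richest in A and T. Their windows had a mean GC content of 33.3% (interquartile range 30.5% to 36%), against 41.6% in all 200-bp tiles of the introns that the rule allows. These introns amounted to 830.5 Mb, and the members had a density of 23.8 per Mb (23.5 to 24.1). The density was 65.6 per Mb (64.23 to 66.97) in tiles of 30% to 35% GC, which held 44.7% of the members in 16.2% of the sequence. It was 59.1 per Mb in tiles of 25% to 30%, 33.8 in tiles of 35% to 40% and 8.06 in tiles of 40% to 45%. Above that it was 0.831 per Mb at 45% to 50%, with 6 members at 50% to 60% and 0 in the 23.7 Mb of tiles at 60% or more. Below 25% GC it fell back to 21.5 per Mb (19.0 to 24.3).

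Introns of shorter genes carried more SOX2-only sites than other sequence of the same base composition. The density of SOX2-only sites was 14.2 per Mb in the introns of genes of 500 kb or more and 9.86 per Mb outside genes, so that the members were 1.68 times (1.62 to 1.74) and 2.41 times (2.36 to 2.47) as dense. In tiles of 30% to 35% GC the values were 65.6 per Mb in the members, 29.9 in very long genes and 23.4 outside genes. Shared intronic sites had a mean GC content of 35.1% and a density of 7.03 per Mb, with 16.1 per Mb in the same tiles. Sequence in which reads cannot be placed uniquely lowers any density. Most 31-mers were repeated in 1.73% (1.56 to 1.93) of the member windows, 0.737% of the shared windows and 13.1% of every 200th tile of these introns, and no repeated 31-mer occurred in 80.1%, 86.4% and 62.4%. The part of unique placement in these densities was not tested.

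**Figure D1:**
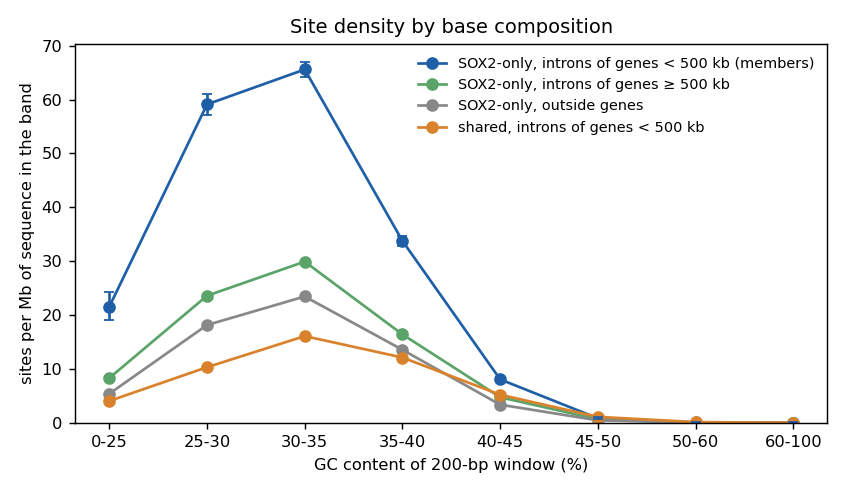
Sites per Mb of sequence (vertical axis) in bands of GC content of the 200-bp window (%, horizontal axis), for the members, SOX2-only sites in very long genes, SOX2-only sites outside genes and shared intronic sites; bars are exact Poisson 95% confidence intervals of the members. The members peaked at 65.6 per Mb in the band of 30% to 35%, where the other classes stood at 29.9, 23.4 and 16.1 per Mb, and all classes were near 0 above 50%.

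The HMG box of SOX proteins recognises a short core, searched here as ACAAAG or ACAATG on both strands. It was present in 46.1% (45.4 to 46.8) of the member windows, in 25.3% of all tiles of the same length and in 27.5% of windows 10 kb upstream and downstream. Tiles with the GC content of the members would hold it in 31.01%, which leaves the members at 1.49 times that share. The 8-base form of the SOX sequence (AACAAAGG and its 7 variants with A or T at the first, second and sixth base) was present in 12.03% of the windows and 6.15% of the tiles. It contains a core where the second base is A. The sequence AACAATAG or AACAATGG, the second of which contains the core, was present in 3.40% and 1.52%. Of the members, 10653 windows (53.9%) held no SOX core, 34.3% held 1, 9.95% held 2 and 1.93% held 3 or more, against 74.7%, 21.4%, 3.52% and 0.415% of the tiles. A window without a match says only that these letters are not in those 200 bp.

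More cores did not go with more listed signal. The median total signal was 2326 in members without a core and 2183.5 in the 382 with at least 3, and the median widths were 571 and 507 bp. By quartile of width, the share with a core fell from 49.6% in the narrowest to 47.5%, 44.5% and 42.9% in the widest. Centring the windows on the region of maximum signal gave 50.5%, 48.6%, 47.7% and 45.3%. The difference between narrow and broad sites was therefore still present, and a little smaller, when the window was placed at the signal rather than at the midpoint.

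Pairs of cores within 20 bp of each other were more frequent in the members than in the tiles, in every arrangement. Facing cores were found in 109 windows (0.551%, against 0.192% of tiles), back-to-back cores in 108 (0.546%, against 0.192%) and cores in tandem on 1 strand in 420 (2.12%, against 0.740%). In the shared intronic sites the facing, back-to-back and tandem arrangements were found in 0.788%, 0.702% and 1.97%. Windows with several cores were more frequent in the members whatever the spacing. Those with 2 were 9.95% against 3.52% of tiles, and those with 3 or more 1.93% against 0.415%. Close pairs were not compared at equal core number or GC content, so no preference for close spacing is read from them. Between 1 and 10 members had facing cores at any given gap. Tandem cores were most frequent at a gap of 18 bp, with 37 members (0.187%), which was also the most frequent gap in the tiles (0.112%). Relative to the direction of the gene, 4300 core matches read along the coding strand and 7362 along the other (36.9%, 36 to 37.8, along the coding strand), beside 40.8% for all matches in these introns. The coding strand of the member windows had 30.4% A and 36.3% T, so the letters of the core are themselves unequal between the strands.

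AP-1, the FOS and JUN family of factors active in fibroblasts, binds TGACTCA or TGAGTCA. This sequence was present in 6.33% (5.99 to 6.67) of the member windows and 3.01% of the tiles, and tiles at the GC content of the members would hold it in 2.61%. The shared intronic sites held it in 16.1% (15.1 to 17.0), 9.74 percentage points more (8.76 to 10.8). Within bands of GC content the difference was 7.97 points, and the shared sites were higher in 6 of 6 bands. The SOX core differed far less, by 3.11 points (1.66 to 4.57), or 2.04 within the bands. The AP-1 share of the members fell with width, from 8.92% in the narrowest quartile to 6.53%, 5.89% and 3.96%. Shared intronic sites were listed as narrower, how their boundaries were set is not stated, and the part of width in the AP-1 difference was not tested.

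Among the other motifs, the TEAD sequence GGAATG, bound by the factors of the Hippo pathway, was present in 14.8% of members, 10.4% of tiles and 17.9% of shared intronic sites, and its share was 1.53 times that of tiles at equal GC content. The RUNX sequence TGTGGT was present in 13.3%, 14.1% and 15.5%, and at equal GC content the members stood at 1.16 times the tiles. The octamer ATGCAAAT, bound by the POU factors that partner SOX2 in pluripotent cells, was present in 2.77% of members (2.546 to 3.004) and 1.77% of tiles, but tiles at equal GC content would hold it in 2.73%. The forkhead sequence TGTTTAC was likewise near its value at equal GC content, with 4.43% against 4.29%. The C/EBP sequence TTGCNNAA was present in 13.4% of members and 10.1% of tiles. Sequences rich in G and C were rare: the ETS sequence CCGGAAG in 0.142%, the GC box GGGCGG in 0.192% and the E-box CAGCTG in 4.82%, against 0.436%, 2.97% and 6.99% of tiles. The palindromic NFI motif was found in 1 window. No comparison at equal GC content was made for these last 5.

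Of the motifs, the SOX core, TEAD, the octamer and C/EBP were less frequent in the members than in SOX2-only sites outside genes. The SOX core share was 1.69 points lower than in very long genes (difference -1.69, -3.46 to 0.0743) and 1.88 points lower than outside genes (-1.88, -3.07 to -0.698). AP-1 differed from the sites outside genes by -0.492 points (-1.09 to 0.0915). The octamer was present in 3.61% of the sites outside genes, a difference of -0.840 points (-1.28 to -0.424), and TEAD differed by -1.79 (-2.66 to -0.922). C/EBP differed by -1.36 points (-2.20 to -0.539). All tiles outside genes also held the octamer more often than those of the eligible introns, 2.262% against 1.77%. The same held for the SOX core (27.9% against 25.3%), C/EBP (11.1% against 10.1%) and TEAD (10.71% against 10.38%). In very long genes 28.4% of tiles held the SOX core. The differences between classes take no account of these tile shares, so they do not show weaker enrichment in the members.

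Motif positions were then counted in bins of 20 bp around the middle of the region of maximum signal. SOX cores were raised out to about 360 bp on either side, with a shallow dip at the middle. There were 6.04 matches per 100 members per bin (5.80 to 6.29) within 20 bp, 6.98 (6.72 to 7.24) at 60 to 80 bp on either side, and 3.28 at 500 to 1000 bp. AP-1 matches instead peaked at the middle, with 1.05 (0.948 to 1.15) within 20 bp, 0.582 (0.509 to 0.662) at 60 to 80 bp and 0.276 at 500 to 1000 bp. The TEAD values were 2.005, 1.702 and 1.051. In shared intronic sites the AP-1 values were higher, 2.71, 1.60 and 0.358, and the SOX core values were 6.80, 7.46 and 3.29. In which group the maximum-signal region of the shared sites was measured is not stated, nor how their boundaries were set. The part of this in the differences between the classes was not tested. In both classes AP-1 was higher at the middle than at 60 to 80 bp. The dip of the SOX core depended on the reference point and, in shared sites, lay within overlapping intervals (6.34 to 7.29 and 6.97 to 7.97). About the interval centre the members had 6.20 within 20 bp and 6.11 at 60 to 80 bp, and the shared sites 7.23 and 6.71. The AP-1 values about the interval centre were 0.761 (0.677 to 0.852) and 0.642 (0.566 to 0.726) in the members. In the shared sites they were 1.88 (1.64 to 2.14) and 1.70 (1.47 to 1.95). These intervals overlapped in both classes, so the AP-1 peak depended on the reference point as well.

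**Figure D2:**
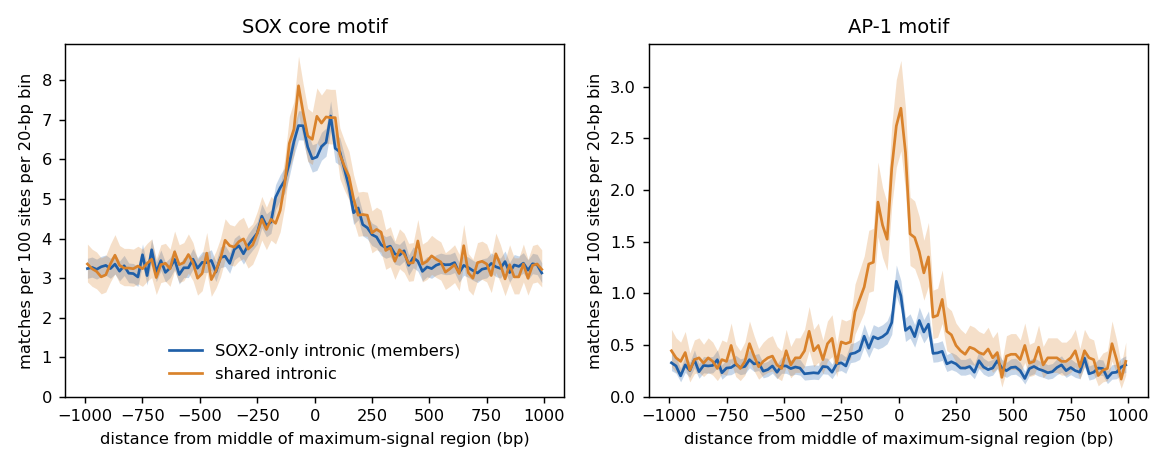
Matches per 100 sites per 20-bp bin (vertical axis) against distance in bp from the middle of the region of maximum signal (horizontal axis), for the SOX core (left) and AP-1 (right) in the members and in shared intronic sites; bands are Poisson 95% confidence intervals. The members reached 6.98 SOX cores at 60 to 80 bp against 6.04 at the middle, while AP-1 was highest at the middle, at 1.05 in the members and 2.71 in the shared sites.

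The members lay a median of 9528.5 bp from the nearest transcript start (interquartile range 4340 to 19861 bp). The member just outside the 1-kb limit was at 1001 bp with a total signal of 2272, and the SOX2-only site just inside it was at 1000 bp with 3902. Density was 20.1 per Mb at 1 to 2 kb from a start, rose to 25.5 at 10 to 25 kb and was 16.3 (13.8 to 19.2) beyond 100 kb. GC content falls away from starts, so an expectation was formed from the density of members in each GC band. The ratio of observed to expected sites was 0.991 at 1 to 2 kb, 1.07 and 1.08 at 2 to 5 and 5 to 10 kb, 0.766 at 50 to 100 kb and 0.495 beyond 100 kb. Introns far from any start thus held fewer members than their base composition alone would give.

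Of the members, 18103 (91.5%) lay in an intron of the main transcript of their gene, and the median length of that intron was 21.7 kb. First introns held 22.4% (21.8 to 23.1) of them, against 25.3% of the intronic sequence and 26.9% of the shared intronic sites, which exceeded the members by 4.46 points (3.12 to 5.82). Density was 21.9 per Mb in first introns, 23.1 in second introns and 27.2 in introns 11 and later. The ratio to the GC expectation moved less, from 0.985 to 1.08. Shared intronic sites did not follow the same order, with 7.56 per Mb in first introns and 6.86 in introns 11 and later.

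With gene length, density rose from 7.44 per Mb in genes under 10 kb to 12.2, 18.4, 23.4 and 26.8 in genes of 10 to 20, 20 to 50, 50 to 100 and 100 to 200 kb, and was 24.6 in genes of 200 to 500 kb. Against the GC expectation the ratios were 0.563, 0.836, 1.00, 1.07, 1.10 and 0.917. Genes under 20 kb thus held fewer members than expected from their base composition. At the span limit, DIAPH3 (498 kb) held 23 members, and KCNAB1, just over it at 501 kb, held 12 SOX2-only intronic sites.

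**Figure D3:**
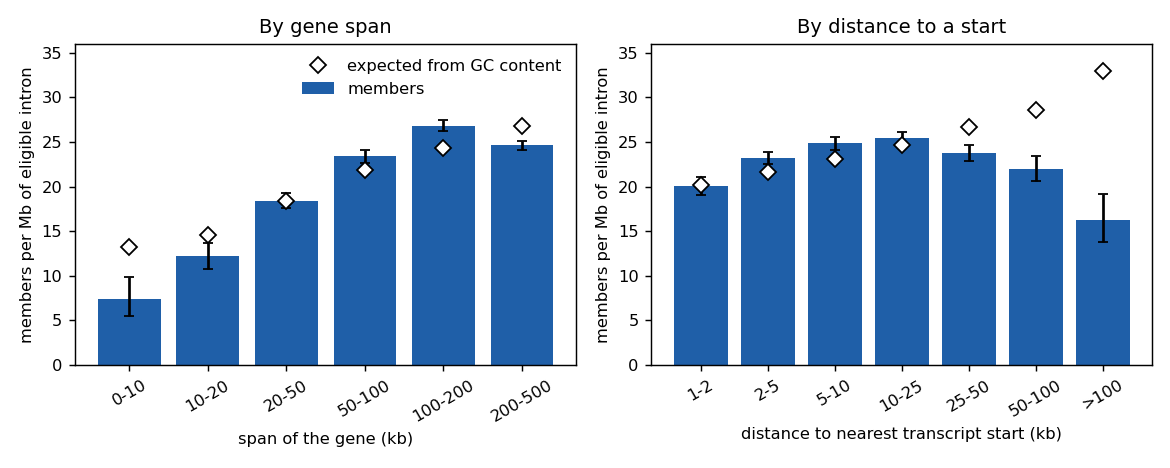
Members per Mb of eligible intron (bars, vertical axis) by span of the gene in kb (left) and by distance in kb to the nearest transcript start (right), with exact Poisson 95% confidence intervals; diamonds are the values expected from GC content. Density rose to 26.8 per Mb in genes of 100 to 200 kb, and beyond 100 kb from a start it was 16.3 per Mb, below the diamond.

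On chromosome X the sites were sparse. It held 149 members, or 4.46 per Mb, against 24.7 per Mb on the autosomes, which is 18.1% (15.3 to 21.2) of the autosomal density. Among intervals of the upper 50% by total signal the value was 7.85%. Shared intronic sites on X stood at 14.0% of their autosomal density, and within tiles of 30% to 35% GC the members stood at 13.6%. The line comes from foreskin, a male tissue, and the part of X copy number in these values was not tested. Chromosome 19 had 4.81 per Mb, or 0.481 of its GC expectation. Among autosomes the highest density was 31.5 per Mb on chromosome 13, and the highest ratio to the GC expectation was 1.303 on chromosome 17.

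By gene, 6043 of 17454 protein-coding genes under 500 kb with eligible intron held at least 1 member (34.6%). The share followed span, from 1.58% of genes under 10 kb to 83.3% of genes of 200 to 500 kb. Of these genes, 2340 held exactly 1 member, 1409 held at least 5, 415 at least 10 and 49 at least 20. No shared intronic site lay in 3562 of them (58.9%), and 2481 (41.1%) held at least 1. Over all eligible genes, 2963 (17.0%) held a shared intronic site. The part of gene span in these shares was not tested. Members were a median of 10.6 kb from the nearest other member, 5854 (29.6%) had another within 5 kb, and the median distance to the nearest shared intronic site was 52.5 kb.

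The gene with most members was EIF4G3, a scaffold of the translation initiation complex, at chr1:21132785-21503778. It held 36 members and 2 shared sites where 10.3 members would be expected from intron length and GC content. Their total signal ran from 1190 to 8527, a SOX core was present in 11 windows, and 28 were found in the down-sampled list. SLIT2, a secreted guidance ligand of the ROBO receptors, at chr4:20253528-20622184, held 35 members and 7 shared sites (13.3 expected), with total signals of 1206 to 7281 and a SOX core in 11. FAM172A held 31 (17.4 expected) and its neighbour on chromosome 5, KIAA0825, 26 (16.1). The members of these genes were spread along most of their length.

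DST, which links cytoskeletal filaments, held 30 members and 13 shared sites (13.7 expected), and TCF12, a helix-loop-helix factor that partners tissue-specific factors, held 30 and 9 (12.7 expected). CAMKMT, which methylates calmodulin, and MBD5, a methyl-CpG-binding-domain protein, held 28 each (13.3 and 16.5 expected). CAMK2D, a calcium- and calmodulin-dependent kinase, held 27 (12.1) and ASCC3, a helicase, 26 (15.3). TBCK held 26 members (9.54 expected) and no shared site, with total signals from 1271 to 7483 and SOX cores in 12. In none of these 11 genes was the number below the expectation, which follows from the choice of the genes with most members and is no support for an excess.

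Some short genes were crowded. XPA, which recognises damaged DNA in nucleotide excision repair, held 5 members in 18.4 kb of eligible intron (272 per Mb), with total signals of 1374 to 2943. SAV1, a scaffold of the Hippo kinases, held 5 in 23.2 kb (216 per Mb), SNX16, a sorting nexin, 7 in 33.0 kb (212), DLD, a subunit of mitochondrial dehydrogenase complexes, 5 in 24.8 kb (202) and KDM1A, a histone demethylase, 7 in 37.8 kb (185). Each held 0 or 1 shared site. These genes were picked as the densest among those with at least 5 members, so their densities are descriptions.

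**Figure D4:**
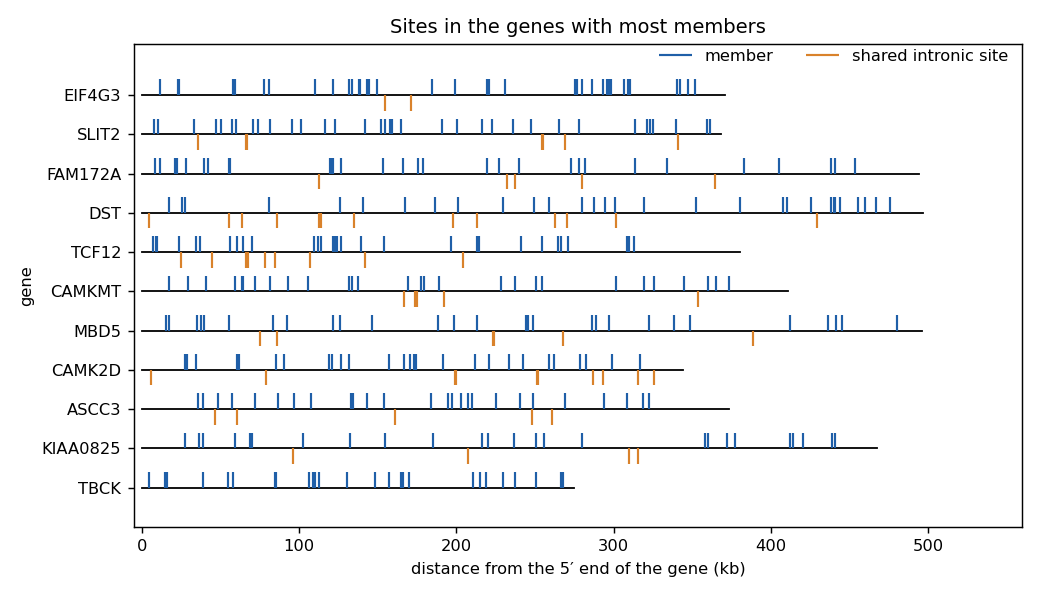
Positions of members (upper ticks) and shared intronic sites (lower ticks) along the 11 genes with most members, as distance in kb from the 5′ end of the gene (horizontal axis), each line drawn to the span of its gene. EIF4G3 held 36 members and 2 shared sites and TBCK 26 members and 0 shared sites, and ticks were spread along most of each gene, although the last site in TCF12 lay at 313 kb of its 381 kb.

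Genes were also read by role, from 12 lists of genes known for fibroblasts, for SOX2 or for other cell types. In each, the members were set beside the number expected from intron length and GC content. A site in overlapping genes counts in each, and the Poisson intervals of the ratios take no account of sites that cluster within a gene. The lists were also written with earlier results of these data known, so the intervals are not used as tests. The median number of members per gene was 0 over all eligible genes, and 6043 of 17454 (34.6%) had a member. That share rose with gene span. Median span was 32.5 kb over all eligible genes and ran from 6.07 to 316 kb between the lists. The counts of genes with a member are therefore given as descriptions only.

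The lists for the fibroblast's own matrix and cytoskeleton had nearly equal ratios with overlapping intervals. In the list of matrix and surface genes, 13 of 26 genes had a member (median 0.5), with 61 members or 37.0 per Mb and a ratio of 1.27 (0.971 to 1.63) to the expectation. FBN2 and FBN1, the fibrillins of elastic microfibrils, held 16 and 12 members with total signals of 1320 to 4842 and 1256 to 4360. COL5A2, a chain of type V collagen, held 10, of which 5 lay in the first intron. A SOX core was present in 7 windows in FBN2, 6 in FBN1 and 7 in COL5A2, beside 46.1% of all members. Among actin and focal adhesion genes, 18 of 30 had a member (median 1), with 104 members and a ratio of 1.28 (1.05 to 1.56). DIAPH3, a formin that builds actin filaments, held 23. The actin-binding protein gene PALLD held 17 members beside 15 shared sites, and PTK2, which encodes focal adhesion kinase, held 12. A SOX core was present in 14 windows in DIAPH3, 7 in PALLD and 7 in PTK2. Shared intronic sites were also dense in the matrix and actin lists, at 15.8 and 15.9 per Mb against 7.02 over all genes. The members stood at 37.0 and 28.0 per Mb against 23.8, so a raised density was not particular to them.

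Among genes of TGF-beta and BMP signalling, which controls matrix production, 21 of 26 had a member (median 2), with 82 members and a ratio of 1.25 (0.992 to 1.55). LTBP1, which holds latent TGF-beta in the matrix, had 13 members and 11 shared sites. SMURF1, a ubiquitin ligase for pathway components, had 12 members in 101.6 kb of eligible intron where 2.46 would be expected, and 11 of the 12 lay in its first intron. BMPR2, a type II receptor for BMPs, had 9. In the list of AP-1, TEAD and RUNX regulators, 12 of 25 genes had a member, with 46 members and a ratio of 1.48 (1.09 to 1.98), among them TEAD1 with 8, ATF2 with 7 and RUNX2 with 7. Shared intronic sites were dense here too, at 13.9 per Mb in the TGF-beta list and 13.3 in the regulator list, against 7.02 over all genes. The members stood at 30.9 and 30.5 per Mb against 23.8.

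Genes tied to SOX2 in stem cells had ratios whose intervals spanned 1. Of 8 eligible SOX family genes 0 had a member, but their introns are so short that 1.28 members would be expected in all, and 0 counted sites allow a ratio of up to 2.88. Among pluripotency and reprogramming genes, 6 of 26 had a member, with 19 members and a ratio of 0.920 (0.554 to 1.44). The most were in TET2, which oxidises 5-methylcytosine, with 8 members, and in JARID2, a partner of the Polycomb complex, with 6. TET1 held 2. Of neural progenitor and glial genes, 10 of 19 had a member (ratio 1.007, 0.723 to 1.37). The most were in GLI3, an effector of Hedgehog signalling, with 10, in the cadherin gene CDH2 with 8 and in NOTCH2 with 7. A SOX core was present in 9 windows in GLI3, 2 in CDH2 and 4 in NOTCH2, beside 46.1% of all members.

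Neuronal receptors and channels had the lowest ratio among the lists with a member. Although 16 of 26 genes had one (median 1), the list held 54 members in 6.93 Mb of eligible intron, or 7.79 per Mb, where 204 would be expected from GC content, a ratio of 0.265 (0.199 to 0.346). Its genes were long, with a median span of 316 kb, and their shared sites were also sparse, at 3.90 per Mb against 7.02 over all genes. The glutamate receptor subunit gene GRIA1 held 9 members (6.69 expected), with total signals of 1887 to 6641. GABRB1, a subunit of the GABA-A receptor, held 8 (15.4 expected) and GRIK1 held 6 (12.2 expected).

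Genes of other cell types and of general upkeep completed the set. Among blood and immune cell genes, 10 of 29 had a member (34.5%, beside 34.6% of all eligible genes), at a ratio of 0.896 (0.605 to 1.28). There were 13 members in the scavenger receptor gene CD36, 4 in the kinase gene LYN and 4 in PTPRC, which encodes the leukocyte phosphatase CD45. Of liver and gut genes, 9 of 27 had a member (33.3%), with 29 members and 2 shared sites and a ratio of 0.673 (0.451 to 0.967). The chloride channel gene CFTR held 12, CPS1, an enzyme of the urea cycle, 6, and the albumin gene ALB 2. Ribosomal protein and proteasome genes held 5 members in 4 of 21 genes (ratio 0.521, 0.169 to 1.22), with 2 in PSMB2 and 1 each in PSMA1 and PSMA5. Genes of replication and the cell cycle had a member in 13 of 32 (ratio 1.14, 0.845 to 1.49), led by CDK6 with 15, the tumour suppressor RB1 with 14 and ORC4, a subunit of the origin recognition complex, with 7.

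**Figure D5:**
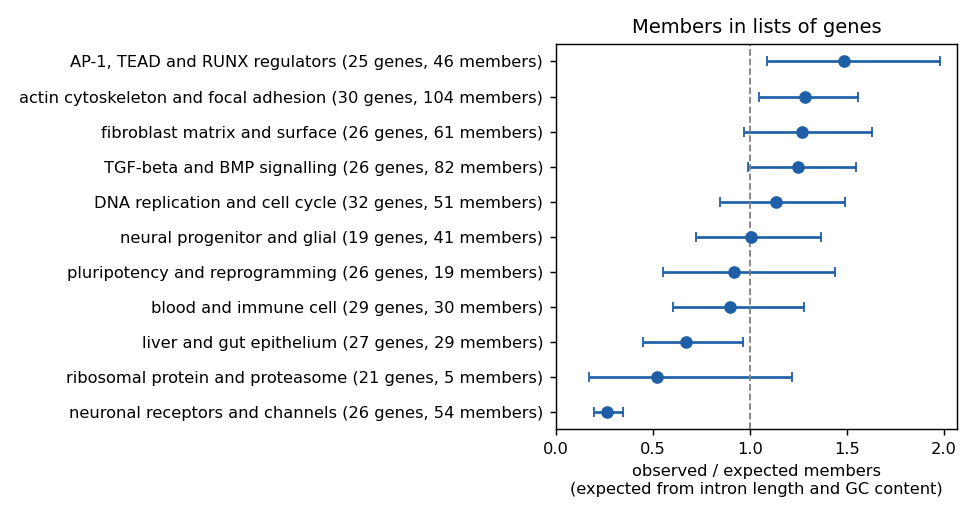
Ratio of observed members to those expected from intron length and GC content (horizontal axis) for the 11 gene lists that held a member (vertical axis), with Poisson 95% confidence intervals; the dashed line marks 1. Neuronal receptors and channels stood at 0.265, and AP-1, TEAD and RUNX regulators at 1.48.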

How the data were processed

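The lists of SOX2, SOX2-DBD and down-sampled SOX2 intervals were deposited by the authors. Per the submitters' processing notes, the tools included Bowtie2 2.3.4.1, SAMtools, bedtools 2.27.1, SEACR 1.3 and deepTools 3.5.0, and the build was hg19. Their settings, the normalization of the signal and whether replicates were pooled are not given in the sources used here. Total and maximum signal per interval are the authors' deposited values, and the down-sampled list has none.

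The 1654 duplicate rows were counted once, 0 of them in SOX2-only rows. Positions were set against GENCODE release 44 mapped to GRCh37. Motifs were sought on both strands of 200-bp windows and of all 200-bp tiles that the rule allows. Shares have Wilson, differences Newcombe, densities exact Poisson and medians order-statistic 95% confidence intervals. Genes on the Y chromosome were left out of the counts by gene. Expected numbers apply the density of members in 8 GC bands to the tiles of a gene or region. Repeated 31-mers were counted over the genome.

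The members, the 12 gene lists and the alternatives were chosen with earlier results of these data known. Named are the 5 members of highest total signal, the 10 genes with most members (11 with a tie), the 5 densest with at least 5 members and up to 3 genes per list. Printed windows were taken from outside chromosome 8, and some that the choice by signal gave are not reported here. Tested at random positions of a real chromosome, the position rule gave the same answer as a direct count at 500 of 500. On simulated windows made of C and T only, SOX core matches planted in 25.9% of windows were found in 25.9%. No unplanted match could arise in such windows. Software comprised python 3.11.15, scipy 1.17.1, numpy 2.4.6, pandas 2.3.3, samtools 1.23.1, matplotlib 3.10.9 and numba 0.67.0.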

Additional observations from a re-analysis of the deposited data

How the results depend on the processing

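No paired analysis was possible because only lists of replicate 1 were analysed, and no replicate could be left out in turn. No result reversed. A span limit of 200 kb gave 12037 members, a median width of 554 bp and 23.3 per Mb. The upper 50% by total signal gave 9433 members, a median width of 746 bp, the SOX core in 45.1%, AP-1 in 5.40% and chromosome X at 7.85% of the autosomal density. Covering at least 50% of the member put 56.0% in the down-sampled list. Windows of 100 bp gave the SOX core in 26.4% (tiles 13.4%), AP-1 in 3.17% (tiles 1.47%) and a difference of 5.55 points from shared sites. Centring on the maximum signal gave 48.0% and 6.80%. The longer motif WWCAAWGG gave 12.03%, against 6.15% of tiles. Within GC bands the AP-1 difference was 7.97 points. Density was 24.5 per Mb beyond 5 kb from a start and 24.7 on autosomes. The lower counts of members, the lower shares in shorter windows or with a longer motif and the stricter overlap follow by construction. For the other shifts, the cause was not tested. A further 14 values stayed within their intervals, or within 1.5 times for a count. Leaving out chromosome X, an alternative added after seeing the data, gave the SOX core in 46.2%. Unknown depth limits every count, since a deeper library yields more intervals.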

Other observations

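Members whose window was mostly repeated sequence differed in motif content from those with no repeated 31-mer. In 343 members at least 50% of the 31-mers of the window occurred more than once, and in 15844 none did. The SOX core was present in 54.2% of the former and 45.2% of the latter. AP-1 was present in 1.17% and 6.84%. The median total signal was 2279 and 2283, and 66.2% and 64.3% were found in the down-sampled list. Among the members with no repeated 31-mer, the AP-1 share thus lay above the 6.33% of all members. It lay below the 16.1% of the shared intronic sites, which were not restricted by repeats. These sets were not compared at equal GC content.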
